A study of Mus musculus with 12 samples.

Results

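Genes of the mouse histone clusters were followed in liver across 4 diets. Members were chosen by name, as the genes whose symbol begins with Hist1h, Hist2h, Hist3h or Hist4h and for which the array holds at least 1 row (probe set) annotated to that symbol alone. This gave 40 genes read by 69 rows, out of 20422 genes read by 212138 rows with 1 symbol. Counting rows shared between symbols, 62 histone cluster genes are named. Those without a row of their own are not among the members. A gene value is the mean log2 intensity of its rows. The arrays were Affymetrix Mouse Gene 1.0 ST arrays, 12 in all with 3 per diet, and each was hybridised with liver RNA pooled from 5 of the 15 male C57Bl/6J mice of that diet, aged 20 weeks and fasted overnight. The ASP + MSG + TFA mice drank water with aspartame (ASP, a sweetener, 0.25 g/L) and monosodium glutamate (MSG, a flavour enhancer, 0.75 g/L). The ASP + TFA mice drank aspartame alone at 0.25 g/L, the MSG + TFA mice monosodium glutamate alone at 0.75 g/L, and the TFA mice water without additives. All 4 groups, the TFA controls included, ate the same chow with 20% shortening by weight, which held 8.68% trans fat, and no group without trans fat is part of the comparison. The diets started in the dams at 6 weeks of age, 3 weeks before mating, and the offspring, weaned at 4 weeks, stayed on them.

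Histones package DNA. H2A, H2B, H3 and H4 form the core of the nucleosome, and H1 binds the linker DNA where it enters and leaves that core. Most genes of the histone clusters lack introns, are transcribed mainly while DNA is replicated, and give transcripts that end in a stem-loop in place of a poly(A) tail, so that their level in a tissue usually follows the number of cells in S phase. In adult liver few cells divide, and some cluster genes also make polyadenylated transcripts outside S phase. The cDNA for these arrays was primed with random hexamers, which does not need a poly(A) tail.

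All 40 members matched a current gene of RefSeq through older names, and 31 of them lie on chromosome 13, 6 on chromosome 3, 2 on chromosome 11 and 1 on chromosome 6. They comprised 5 genes of linker histone H1, 10 of H2A, 10 of H2B, 5 of H3 and 10 of H4. The current name is given here for those on which the results turn: Hist1h3a is now H3c1, Hist1h3d is H3c4, Hist1h4a is H4c1, Hist1h4f is H4c6, Hist1h4h is H4c8, Hist1h4i is H4c9, Hist1h4k is H4c12, Hist1h1e is H1f4 and Hist1h2ab is H2ac4. RefSeq calls Hist3h2bb a pseudogene (H2bu1-ps). Genes of a histone type are nearly alike in coding sequence. Of the 40 members 25 were read by 1 row and 15 by several, whereas only 11.2% of all genes were read by 1 row and the median was 8. Another 47 rows named a histone cluster gene together with other symbols and belong to no single member.

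The cluster genes also share elements upstream of their starts. RefSeq promoters (GRCm38.p6) were at hand for 34 of the 40 members. In the 250 bases before the start, read on both strands, CCAAT stood in 26 of 34 members (76.5%, against 33.8% of 32851 promoters of all genes), TATAAA in 17 (50%, against 12.4%) and the octamer ATTTGCAT in 11 (32.4%, against 1.6%). By type, CCAAT was found in all 5 H1, all 10 H2A and all 7 H2B promoters but in 1 of 3 H3 and 3 of 9 H4 promoters, and the octamer in 6 of 10 H2A and 5 of 7 H2B promoters and in 0 of the H1, H3 and H4 promoters. The last 150 bases before the start are printed for 1 gene each of H1, H2A, H3 and H4 described below, to show how these elements are placed in promoters of different types. They run 5′ to 3′ along the gene's strand and end at the base before the start, with the 3 motifs in capitals, on whichever strand they stand. On the other strand CCAAT appears as ATTGG, and likewise TATAAA becomes TTTATA, while the octamer becomes ATGCAAAT. The stretches lie at chr13:23622559-23622708 on the minus strand (Hist1h1e), chr13:23750938-23751087 on the plus strand (Hist1h2ab), chr13:23575613-23575762 on the plus strand (Hist1h3d) and chr13:21750554-21750703 on the minus strand (Hist1h4k).
Hist1h1e: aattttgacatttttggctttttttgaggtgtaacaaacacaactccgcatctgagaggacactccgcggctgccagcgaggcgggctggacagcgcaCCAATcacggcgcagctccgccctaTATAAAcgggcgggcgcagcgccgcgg
Hist1h2ab: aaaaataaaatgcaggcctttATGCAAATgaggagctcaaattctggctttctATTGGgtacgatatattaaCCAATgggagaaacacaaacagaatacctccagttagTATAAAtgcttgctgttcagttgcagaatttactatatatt
Hist1h3d: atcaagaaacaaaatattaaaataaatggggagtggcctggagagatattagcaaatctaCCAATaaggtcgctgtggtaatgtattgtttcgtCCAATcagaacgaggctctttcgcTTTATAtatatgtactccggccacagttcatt
Hist1h4k: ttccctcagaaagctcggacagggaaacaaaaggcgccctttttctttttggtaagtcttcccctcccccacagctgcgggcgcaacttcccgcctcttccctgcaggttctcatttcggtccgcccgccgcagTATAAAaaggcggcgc
The printed H2A promoter holds all 3 elements, with the octamer upstream of CCAAT and TATAAA nearest the start. The printed H1 and H3 promoters hold CCAAT and TATAAA but not the octamer, and in the printed H4 promoter TATAAA alone is found. By type, TATAAA stood in 4 of 5 H1, 5 of 10 H2A, 3 of 7 H2B, 1 of 3 H3 and 4 of 9 H4 promoters. The printed stretches are thus examples and need not be typical of their type. In 0 promoters of members did matches of different motifs overlap. A match is a match of letters and was not tested for function. RefSeq promoters were not at hand for Hist1h3a and 5 other members.

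The arrays were alike in scale, with medians between 6.91 and 6.97 on the log2 scale and linear intensities between 14.8 and 68604. Markers of hepatocytes had a mean log2 intensity of 12.95 to 13.17 on every array and those of testis germ cells, where several histone variants are made, 6.02 to 6.20. Transcripts of other organs differed between pools. Of 14 skeletal muscle markers the mean was 6.09 to 6.54 in ASP + MSG + TFA, 5.93 to 6.15 in ASP + TFA, 5.98 to 6.46 in MSG + TFA and 6.69 to 7.18 in TFA pools, so that TFA pools were above all others. Of 16 pancreatic acinar markers it reached 8.44 in ASP + TFA replicate 3 and 7.69 and 7.94 in ASP + MSG + TFA replicates 1 and 2, and lay between 6.04 and 7.33 on the other arrays.

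Across the 4 diets, no histone cluster gene passed the joint test for diet. Diets were compared with limma, fitted to all 20422 genes with Benjamini-Hochberg adjustment. In its F test for diet 0 of 40 members passed an adjusted p of 0.05, against a background of 0.113% of all genes, and the smallest adjusted p was 0.142, for Hist1h3a. At an unadjusted p under 0.05 there were 5 of 40 (12.5%) against 9.16% of all genes. The mean of all 40 members lay between 7.44 and 7.63 on every array. The 95% interval of a difference between 2 diets was 0.27 to either side on the log2 scale for the median member, and 0.18 to 0.65 over the members. In whole liver, fewer cells of a type and less RNA per cell cannot be told apart.

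**Figure D1:**
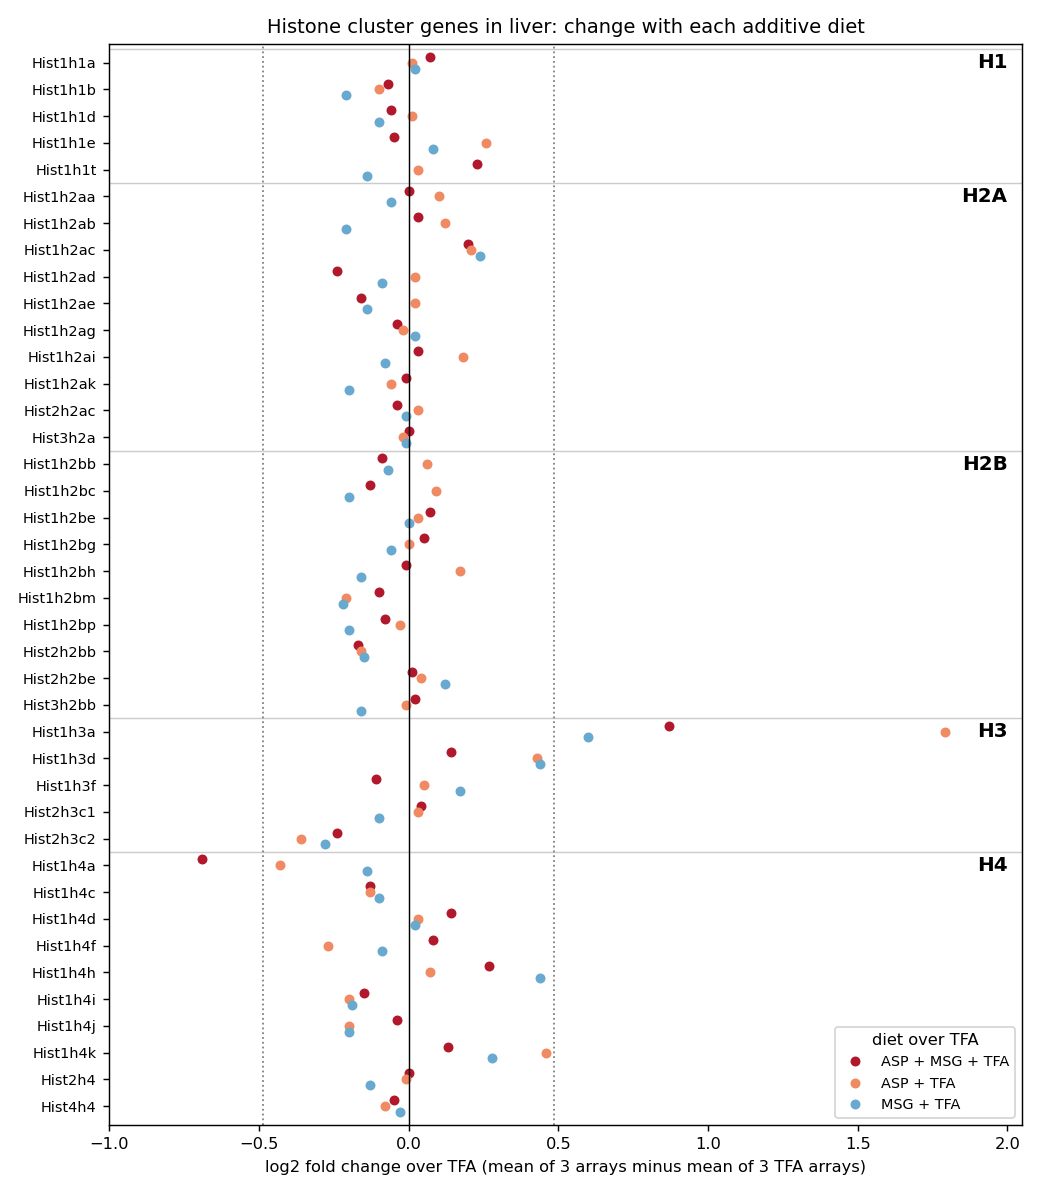
Log2 fold change over TFA (x axis) of each of the 40 histone cluster genes (y axis, grouped by histone type) with ASP + MSG + TFA, ASP + TFA and MSG + TFA, each point a mean of 3 arrays minus the mean of 3 TFA arrays. Dotted lines mark a 1.4-fold change; Hist1h3a with ASP + TFA, at 1.79, stands apart, and most points lie between the lines.

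With ASP + TFA over TFA a single member rose. Hist1h3a, which encodes the replicative H3 protein known as H3.1, had the largest rise of all 20422 genes with ASP + TFA. This ranking sets a gene read by 1 row beside genes that are mostly means of several rows (median 8). Hist1h3a was the only member to pass (1 of 40, against a background of 0.284% of all genes and 0.113% for rises alone). Its log2 intensities were 5.52, 6.35 and 6.78 in ASP + MSG + TFA, 7.26, 6.73 and 7.42 in ASP + TFA, 5.80, 5.56 and 6.47 in MSG + TFA, and 5.75, 5.04 and 5.25 in TFA. All ASP + TFA arrays were above all TFA and all MSG + TFA arrays, while ASP + MSG + TFA replicate 3 lay among the ASP + TFA arrays and ASP + MSG + TFA replicate 1 among the TFA arrays. The means were 6.22 ± 0.639, 7.14 ± 0.362, 5.94 ± 0.472 and 5.35 ± 0.365 in the same order (SD, n = 3). Over TFA, the log2 fold change was 1.79 with ASP + TFA (95% interval 1.14 to 2.44, limma adjusted p = 0.0295), 0.87 with ASP + MSG + TFA (0.22 to 1.52, adjusted p = 0.347) and 0.60 with MSG + TFA (-0.05 to 1.24, adjusted p = 0.872). The 3 comparisons share the TFA arrays, of which replicates 2 and 3 were the lowest of all 12.

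The rise rests on a single row of low signal. Tested among all 212138 rows instead of among genes, the same values gave an adjusted p of 0.148. Hist1h3a is also named by 4 rows shared with other H3 genes, and these were bright (mean log2 intensity 9.16 to 9.28) and changed by 0.02 to 0.05 with ASP + TFA over TFA (adjusted p at least 0.946). Each of these rows names 9 or 10 H3 genes, so they cannot show whether a single dim gene among them changed. When such shared rows were counted for each gene they name, Hist1h3a averaged 5 rows and its log2 fold change was 0.39 (adjusted p = 0.145). That lower value follows from averaging with the near-flat rows. Its neighbours on chromosome 13, with no other gene of RefSeq between, had other values: with ASP + TFA over TFA the log2 fold change was -0.43 for Hist1h4a (adjusted p = 0.588) and 0.01 for Hist1h1a, a linker histone gene (unadjusted p = 0.961).

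**Figure D2:**
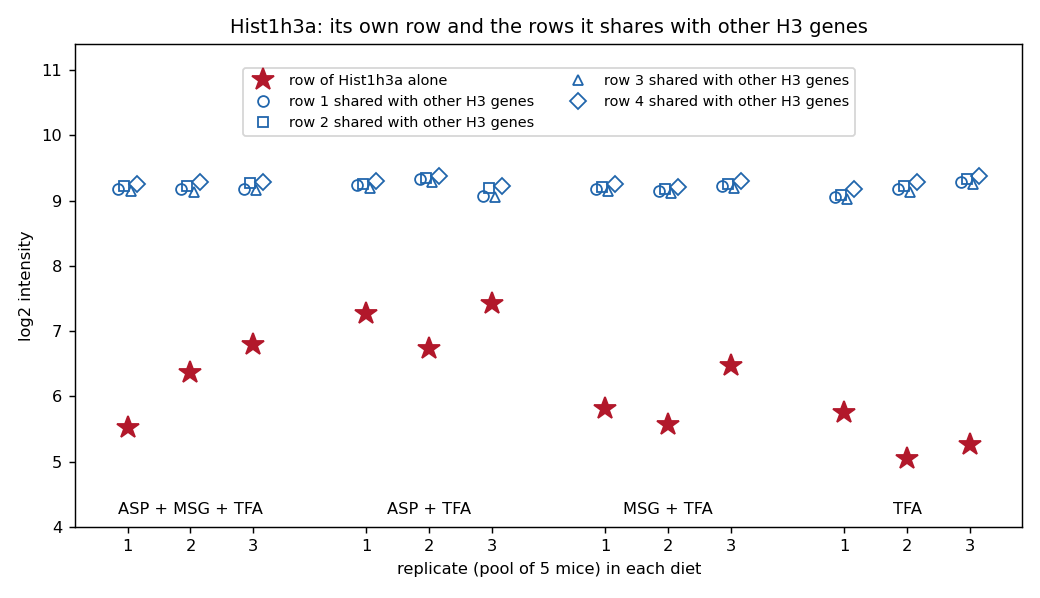
Log2 intensity (y axis) on each array (x axis, replicate within diet) of the row annotated to Hist1h3a alone (stars) and of the 4 rows it shares with other H3 genes (open symbols). The stars of ASP + TFA lie at 6.73 to 7.42 and those of TFA at 5.04 to 5.75, while the shared rows lie above 9 on all arrays.

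The call also depended on how the data were handled. Over 25 alternatives the log2 fold change of Hist1h3a stayed positive, between 0.39 and 1.99, and 16 of them kept it past the threshold. Many of these settings could not change the fold change, which was 1.79 in them. They were the median of rows, the 1.4-fold rule, trend and robust variance, plain analysis of variance and the replicate block. Using only the 6 arrays compared and leaving out arrays of the other diets also belong here. Such settings could move the adjusted p at most. Of the single arrays, leaving out TFA replicate 2 (adjusted p = 0.133), TFA replicate 3 (0.113), ASP + TFA replicate 1 (0.0732), ASP + TFA replicate 2 (0.0562) or ASP + TFA replicate 3 (0.0972) ended the call, although the fold change was then 1.63 to 1.99. Among the 6 arrays compared, the call stayed only when TFA replicate 1 was the array left out (adjusted p = 0.0365). With the mean of the muscle markers as a covariate the fold change was 1.25 (adjusted p = 0.447), and with that covariate 0 genes of the table passed in this comparison. With the acinar mean as a covariate it was 1.79 (adjusted p = 0.0310), and without the 3 arrays highest in acinar markers 1.65 (adjusted p = 0.0451).

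**Figure D3:**
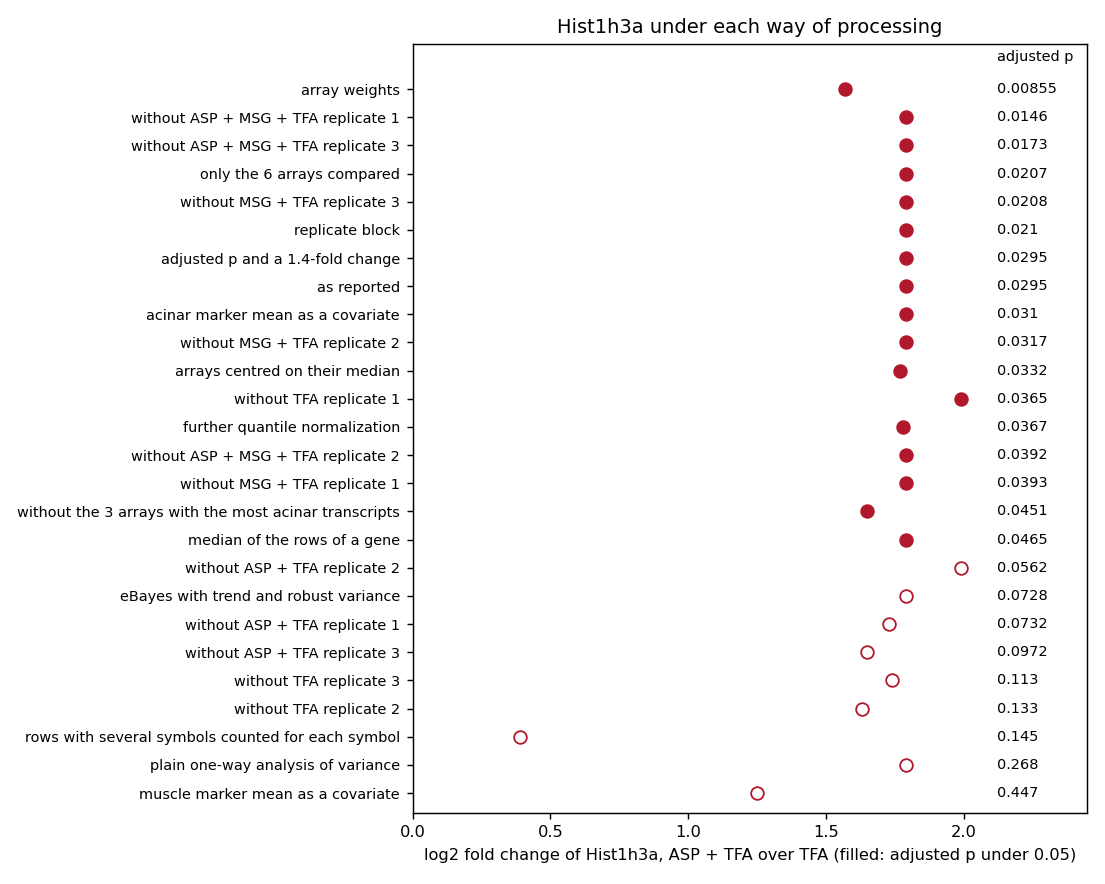
Log2 fold change of Hist1h3a, ASP + TFA over TFA (x axis), as reported and under each of 25 alternatives (y axis), with the adjusted p at the right; filled points have an adjusted p under 0.05. Most settings give about 1.79, and many of these cannot change the fold change. Counting shared rows gives the lowest value, 0.39.

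No other member passed with ASP + TFA over TFA, and the members as a whole were centred where all genes were (median log2 fold change 0.02 for members and 0.02 for all genes, 23 members above 0 and 17 below it). An unadjusted p under 0.05 was reached by 6 of 40 (15.0%, against 10.1% of all genes). All 3 ASP + TFA arrays were above all TFA arrays for Hist1h2ac, Hist1h3a and Hist1h4k (7.50% of members, against 8.48% of all genes), and below them for Hist1h4f and Hist1h4i (5.00% against 4.92%). Hist1h4k, a gene for core histone H4, had 8.79, 8.87 and 9.34 in ASP + TFA and 8.24, 8.74 and 8.63 in TFA, a log2 fold change of 0.46 (adjusted p = 0.321). The groups did not overlap, but ASP + TFA replicate 1 lay only just above TFA replicate 2, and without ASP + TFA replicate 3 the fold change was 0.29. Hist1h3d, another H3 gene, had 10.12, 10.22 and 10.26 in ASP + TFA and 9.51, 10.23 and 9.58 in TFA (log2 fold change 0.43, adjusted p = 0.381), and here TFA replicate 2 lay among the ASP + TFA arrays and the fold change was 0.66 without it. Hist1h1e, which encodes linker histone H1.4, had 9.57, 9.25 and 9.36 against 9.02, 9.28 and 9.09 (0.26, adjusted p = 0.421). Its 4 rows ranged from -0.17 to 0.61.

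On the lower side, Hist1h4f, also for H4, had 8.37, 8.13 and 8.39 in ASP + TFA and 8.47, 8.58 and 8.64 in TFA, a log2 fold change of -0.27 (adjusted p = 0.293). ASP + TFA replicate 2 was the lowest of the 12 arrays, the groups did not overlap, and without that array the fold change was -0.18. Among the H3 genes, Hist2h3c2 had 5.29, 5.55 and 4.88 against 5.64, 5.34 and 5.81 (-0.36, unadjusted p = 0.0720), with overlap, and the fold change was -0.18 without ASP + TFA replicate 3. Thus H3 genes were found at both ends, from -0.36 to 1.79, and H4 genes from -0.43 to 0.46, whereas H2A genes ranged from -0.06 to 0.21 and H2B genes from -0.21 to 0.17.

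**Figure D4:**
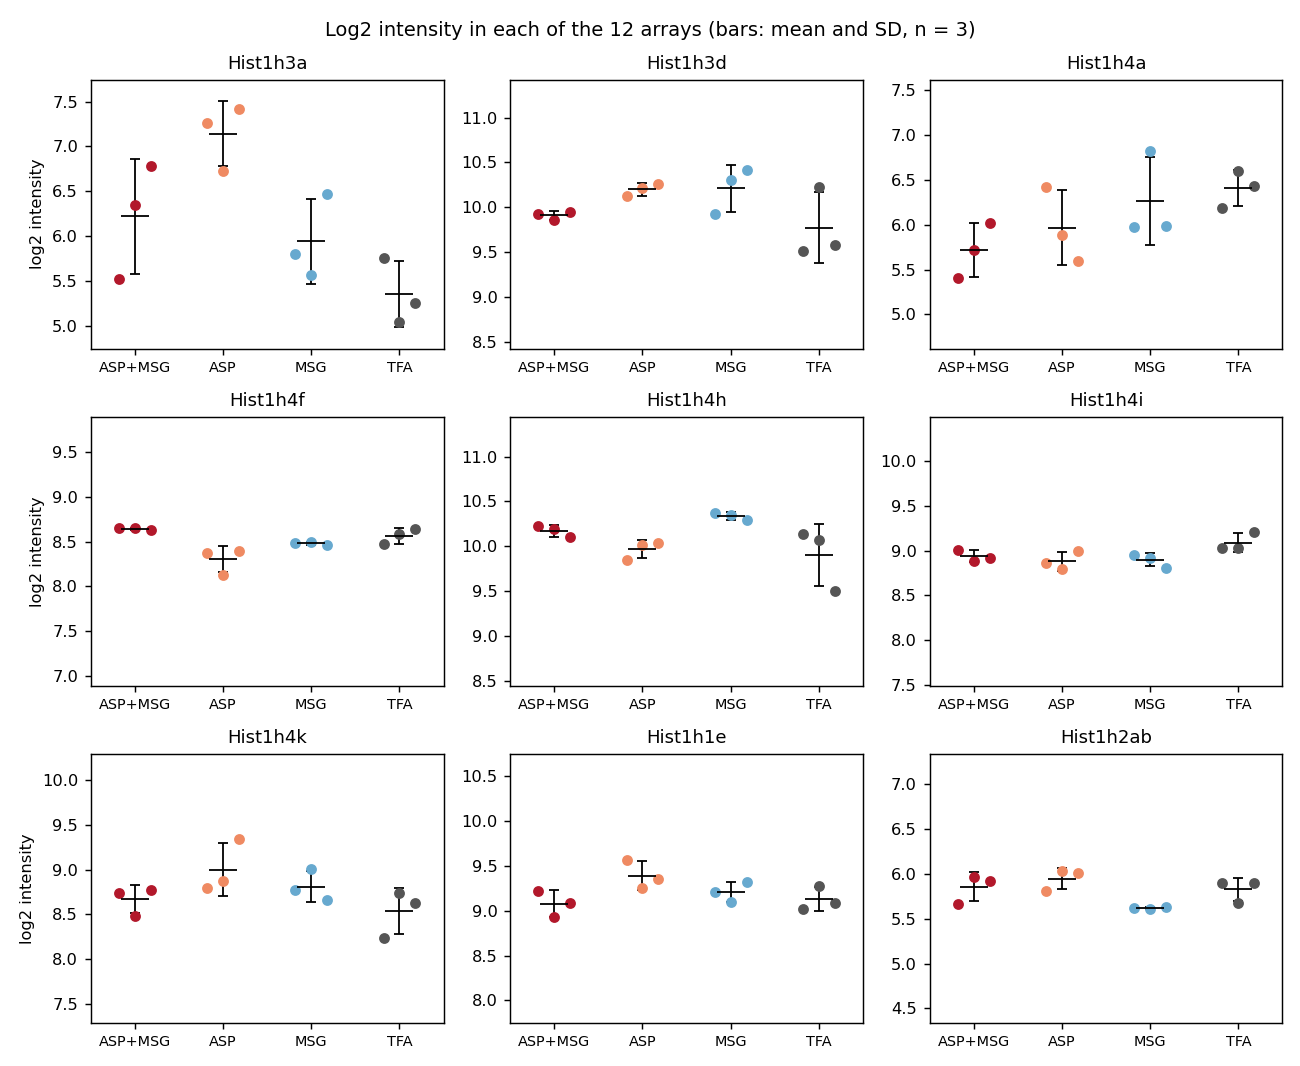
Log2 intensity (y axis, each panel spanning 3 units) of 9 histone cluster genes on the 12 arrays, by diet (x axis; ASP+MSG, ASP and MSG are the diets with additives, all on TFA). Points are arrays and bars the mean and SD of 3 arrays; in Hist1h3a the ASP + TFA arrays stand above TFA by 1.79 on average, and in the other panels the means of ASP + TFA and TFA differ by less than 0.5.

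With MSG + TFA 0 of 40 members passed against TFA (background 0.0196% of all genes), and 3 of 40 had an unadjusted p under 0.05 (7.50%, against 5.81%). More members were lower than higher: 28 of 40 had a negative log2 fold change (70.0%, against 48.7% of all genes), with a median of -0.09 against 0.00 for all genes. The lower members were spread over types, with medians of -0.10 for H1, -0.07 for H2A, -0.15 for H2B and -0.09 for H4 but 0.17 for H3. Since members of a type share sequence, these are counts and not a test. Leaving out single arrays gave medians of -0.12 to -0.05, and over all 25 alternatives the range was -0.12 to 0.04, so the sign was not kept throughout.

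Hist1h4h, for H4, had the smallest p with MSG + TFA. Its values were 10.37, 10.35 and 10.29 in MSG + TFA and 10.13, 10.07 and 9.50 in TFA, with no overlap, and the log2 fold change was 0.44 (adjusted p = 0.556). TFA replicate 3 lay apart from the other TFA arrays, and without it the fold change was 0.24. Hist1h3d stood at 9.92, 10.30 and 10.42 in MSG + TFA (log2 fold change 0.44 over TFA, adjusted p = 0.760), overlapping with the TFA arrays, and at 0.67 without TFA replicate 2. The fold change of Hist1h3a with MSG + TFA, 0.60, was 0.33 without MSG + TFA replicate 3. Hist1h2ab, a gene for H2A, was at 5.62, 5.61 and 5.63 in MSG + TFA and at 5.90, 5.68 and 5.90 in TFA (-0.21, adjusted p = 0.863), below TFA on all arrays. Hist1h2ak, also for H2A, was at 6.99, 6.99 and 7.25 against 7.13, 7.37 and 7.33 (-0.20, unadjusted p = 0.0608), and its 3 rows ranged from -0.46 to -0.05. Of the members 1 lay above all TFA arrays (2.50%, against 6.45% of all genes) and 2 below (5.00%, against 6.75%).

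With ASP + MSG + TFA 0 of 40 members passed against TFA (background 0.0392%), and 2 of 40 had an unadjusted p under 0.05 (5.00%, against 10.1% of all genes). The median log2 fold change was -0.01 for members and 0.01 for all genes, with 17 members above 0 and 23 below it. For 0 members were all 3 arrays above all TFA arrays (against 10.0% of all genes), and for Hist1h2ad, Hist1h4a and Hist1h4i they were below (7.50%, against 7.90%). Hist1h4a, for H4, had 5.41, 5.72 and 6.02 in ASP + MSG + TFA and 6.19, 6.60 and 6.43 in TFA, a log2 fold change of -0.69 (adjusted p = 0.347). Every ASP + MSG + TFA array was lower than every TFA array, though ASP + MSG + TFA replicate 3 and TFA replicate 1 were close. Hist1h2ad, for H2A, had 6.37, 6.39 and 6.15 against 6.42, 6.60 and 6.60 (-0.24, adjusted p = 0.557, and -0.16 without ASP + MSG + TFA replicate 3), and its 3 rows ranged from -0.67 to 0.06. Hist1h1t, the testis-specific linker histone, had 5.48, 5.82 and 5.51 against 5.23, 5.36 and 5.53 (0.23, unadjusted p = 0.119, and 0.12 without ASP + MSG + TFA replicate 2). Its 3 rows ranged from -0.16 to 0.81.

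Hist1h4i, an H4 gene, was below TFA on all arrays of each additive diet. Its values were 9.01, 8.88 and 8.92 in ASP + MSG + TFA, 8.86, 8.80 and 9.00 in ASP + TFA, 8.95, 8.92 and 8.81 in MSG + TFA, and 9.03, 9.03 and 9.21 in TFA. The log2 fold changes over the shared TFA arrays were -0.15, -0.20 and -0.19 in that order (adjusted p = 0.583, 0.447 and 0.846), and -0.09, -0.14 and -0.13 without TFA replicate 3. Of its 3 rows 1 carried the difference, with -0.61 for ASP + MSG + TFA, -0.61 for ASP + TFA and -0.56 for MSG + TFA (adjusted p over rows at least 0.348), and the other two lay between -0.13 and 0.16. Rows of a gene often went apart in this way. In the 15 members with several rows, all rows had the same sign in 2 for ASP + MSG + TFA, 4 for ASP + TFA and 7 for MSG + TFA, and 0 of the 69 rows passed in any comparison against TFA (backgrounds of 0.00141% of all rows for ASP + MSG + TFA, 0.00943% for ASP + TFA and 0% for MSG + TFA). At an unadjusted p under 0.05, the F test for diet took 4 of 69 rows (5.80%, against 8.49% of all rows) and an unmoderated one-way analysis of variance 8 (11.6%, against 7.91%).

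Adding MSG to aspartame was compared next. In ASP + MSG + TFA over ASP + TFA 0 of 40 members passed (background 0.0245%), and 3 had an unadjusted p under 0.05 (7.50%, against 8.41%): Hist1h3a (log2 fold change -0.92, adjusted p = 0.405), Hist1h1e (-0.31, adjusted p = 0.440) and Hist1h4f (0.35, adjusted p = 0.276). Hist1h4f was at 8.65, 8.65 and 8.63 in ASP + MSG + TFA and at 8.37, 8.13 and 8.39 in ASP + TFA, without overlap. Hist1h1e was at 9.22, 8.93 and 9.09 in ASP + MSG + TFA and at 9.57, 9.25 and 9.36 in ASP + TFA, also without overlap. From dimmest to brightest, its 4 rows had log2 fold changes over TFA of -0.31, 0.11, 0.17 and -0.16 with ASP + MSG + TFA. With ASP + TFA these rows had 0.61, 0.40, 0.22 and -0.17. Within each row these diets overlapped, and the dimmest row differed most. The share of all genes without overlap was not counted for this pair of diets. In ASP + MSG + TFA over MSG + TFA 0 passed (background 0.00490%), and in ASP + TFA over MSG + TFA 0 passed (background 0%), with 3 (7.50%, against 6.14%) and 6 (15.0%, against 5.70%) members at an unadjusted p under 0.05. Hist1h3a was the largest of the last, at 1.19 (adjusted p = 0.735).

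The interaction, which is the difference made by MSG in the presence of aspartame minus that made by MSG in its absence, was negative for Hist1h3a (-1.52 on the log2 scale, 95% interval -2.43 to -0.60, adjusted p = 0.336). It was also negative for Hist1h3d (-0.73, adjusted p = 0.427), Hist1h4k (-0.61, adjusted p = 0.555) and Hist1h1e (-0.39, adjusted p = 0.596), and positive for Hist1h4f (0.43, adjusted p = 0.336) and Hist1h4j, for H4 (0.36, adjusted p = 0.643). None of the 40 passed (0, against a background of 0.0686%), and these 6 had an unadjusted p under 0.05 (15.0%, against 7.39%). In Hist1h3d the values of ASP + MSG + TFA, 9.93, 9.86 and 9.95, lay below those of ASP + TFA on every array.

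The members with the brightest signal of their type, apart from Hist1h3d, differed from TFA by 0.20 or less on the log2 scale. Hist1h4d, for H4, ranged from 10.95 to 11.23 over the 12 arrays with log2 fold changes over TFA of 0.14, 0.03 and 0.02 for ASP + MSG + TFA, ASP + TFA and MSG + TFA. Hist1h2bc, for H2B, ranged from 10.37 to 10.89 (-0.13, 0.09 and -0.20). Hist1h1a, for H1.1, ranged from 8.92 to 9.47 (0.07, 0.01 and 0.02), and Hist1h2aa, a testis form of H2A, from 7.64 to 7.95 (0.00, 0.10 and -0.06). Their unadjusted p was 0.102 or more in the F test for diet. Signals of different rows depend on the probes and are not amounts of RNA. Over the whole list, 27 of the 40 members had no unadjusted p under 0.05 in the F test or in any pair of diets (67.5%, against 73.6% of all genes).

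Genes that work with these histones were examined as lists. Of all 20422 genes, 9.16% had an unadjusted p under 0.05 in the F test. Against TFA, 0.0392% of all genes passed with ASP + MSG + TFA, 0.284% with ASP + TFA and 0.0196% with MSG + TFA. Of 41 measured genes of S phase and DNA replication 0 passed in any comparison against TFA. In the F test 2 of these 41 (4.88%) had an unadjusted p under 0.05. The mean log2 intensity of the 41 genes was 6.40 to 6.47 on every array. Among them Tyms, which makes thymidylate, averaged 7.08 in ASP + MSG + TFA, 7.35 in ASP + TFA, 7.41 in MSG + TFA and 7.59 in TFA (F test adjusted p = 0.496), and Rfc5, a subunit of the clamp loader, averaged 7.63, 7.62, 7.86 and 7.53 in that order (0.458). Of 32 genes for the transcription and processing of histone transcripts 0 passed (0 at an unadjusted p under 0.05 in the F test), with list medians of 0.00, 0.00 and -0.02 for ASP + MSG + TFA, ASP + TFA and MSG + TFA. Lsm11, of the U7 particle that cuts the 3′ end of histone transcripts, had 0.30, 0.10 and 0.07 (adjusted p at least 0.354). Of 23 histone chaperones 0 passed, and 1 (4.35%, Npm1) had an unadjusted p under 0.05 in the F test. Among them were Hira, which places variant H3.3 outside replication (0.16, 0.18 and 0.15), Daxx (0.01, 0.21 and 0.10) and Npm1 (-0.26, -0.28 and -0.23).

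Histones made outside replication did not pass either. Of 10 measured genes of that list 0 passed in any comparison against TFA. In the F test 0 had an unadjusted p under 0.05 (against 9.16% of all genes). Cenpa, the H3 variant of centromeres, had -0.12, 0.18 and 0.03 for ASP + MSG + TFA, ASP + TFA and MSG + TFA, and H2afx, the variant that is phosphorylated at DNA breaks, -0.14, 0.10 and -0.05. Of 7 germ line histone genes outside the clusters 0 passed. In the F test 1 of the 7 had an unadjusted p under 0.05 (14.3%, against 9.16%). The list medians were 0.18, 0.00 and 0.12 in the same order of diets.

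In the list for p53 and the DNA damage response, 1 of 20 genes passed, lower with ASP + MSG + TFA (background 0.0392% of all genes), and 7 of 20 had an unadjusted p under 0.05 in the F test (35.0%, against 9.16%) and 6 of 20 with ASP + MSG + TFA over TFA (30.0%, against 10.1%). The gene that passed was Gadd45g, a stress-inducible gene linked to growth arrest, which averaged 7.57 in ASP + MSG + TFA, 8.49 in ASP + TFA, 7.89 in MSG + TFA and 8.47 in TFA, a log2 fold change of -0.89 over TFA (adjusted p = 0.0397). Plk3, a kinase of the stress response, had -0.92 with ASP + MSG + TFA over TFA (unadjusted p = 2.45e-05). Its adjusted p lay at the threshold and did not pass. Btg2, an antiproliferative gene induced by p53, had -0.47 (adjusted p = 0.171) and Mdm2, the ligase that degrades p53, -0.30 (adjusted p = 0.318). The list did not fall as a whole. Sesn2 and Gadd45b, also among these 6 genes, were higher, at 0.29 (adjusted p = 0.315) and 0.40 (adjusted p = 0.397). These genes were chosen after their values were seen. Cdkn1a, the inhibitor p21 that halts cells before S phase, averaged 6.70, 7.31, 6.44 and 6.22 in the order of diets given for Gadd45g. ASP + TFA was highest (1.09 over TFA, adjusted p = 0.0862, not passing), and the SD in MSG + TFA was 0.649. This gene was also chosen after its values were seen, and a link with Hist1h3a was not tested.

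**Figure D5:**
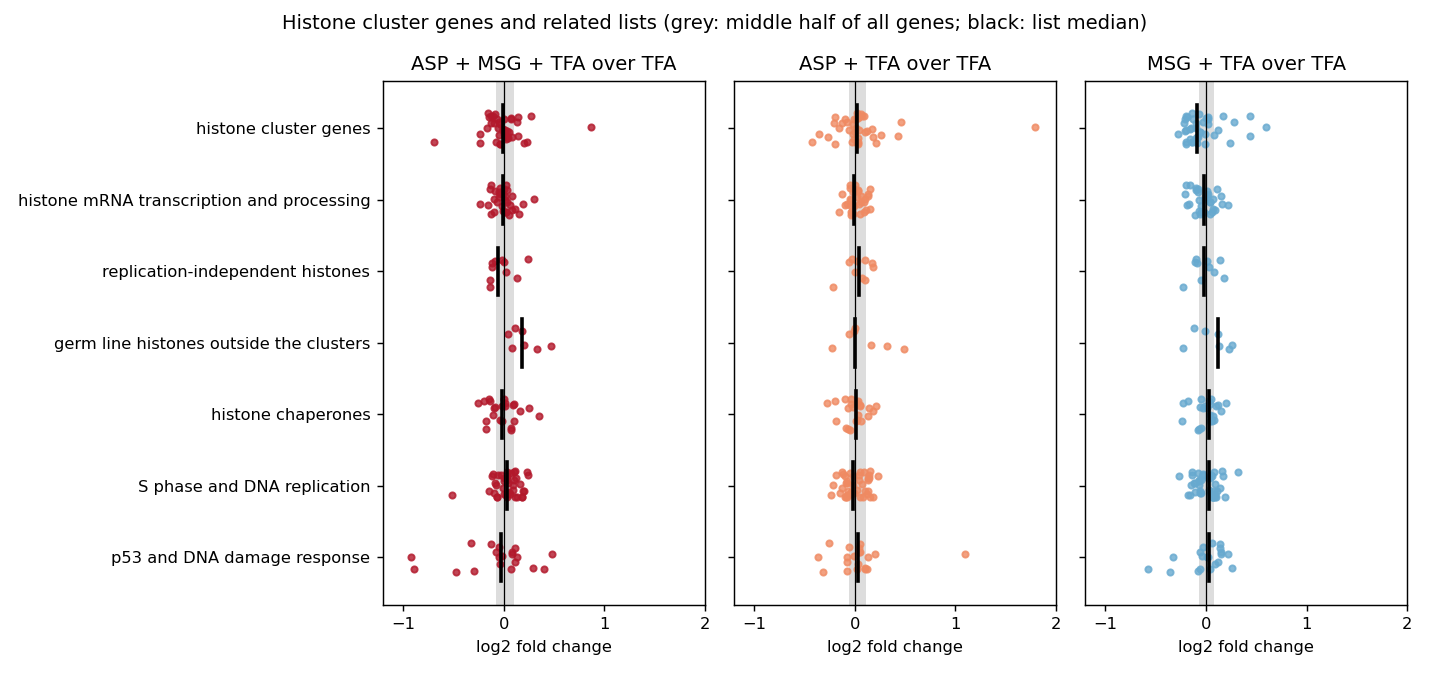
Log2 fold change over TFA (x axis) of the 40 histone cluster genes and of 6 related lists (y axis) with ASP + MSG + TFA, ASP + TFA and MSG + TFA. Each point is a gene, black bars are list medians and the grey band holds the middle of all 20422 genes from the lower to the upper quartile; with MSG + TFA the median of the histone cluster genes is -0.09 and with ASP + TFA it is 0.02.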

How the data were processed

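Liver RNA of 12 pools was hybridised to 12 Mouse Gene 1.0 ST arrays. Background adjustment and summary by GCRMA and quantile normalization were done by the authors in Partek, and the intensities they deposited are linear, taken here to log2 with no value added. The genome build behind the array annotation is not given in the sources used here. Among 241576 rows of the annotation, 212138 named 1 symbol, 4672 several and 24766 none, and rows with several or none were left out.

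Gene values, as means of rows, entered 1 fit over all 12 arrays by limma 3.58.1 (lmFit, eBayes), run under R 4.3.3, where the package data.table (version 1.17.8) read the files. P-values were adjusted by Benjamini-Hochberg over all 20422 genes within each comparison, with a threshold of 0.05. The calling was tested on simulated data. P-values measure the spread between pools. Members, 14 gene lists and the naming rule were chosen with earlier results of these data known. The rule named the members that passed, the 3 with the smallest p in each direction against TFA, the brightest and the smallest F test p of each type, and Hist1h3a. List genes were picked among those with a smaller F test p, but not strictly in that order. For instance, H2afy2, H1fx, Anp32e and Aen were passed over although a named gene of the same list had a larger F test p. Alternatives were other scaling, row filters and averaging, shared rows, trend and robust variance, array weights, a replicate block, leaving out arrays, marker covariates and plain analysis of variance. Python 3.11.15 searched the motifs with pandas 2.3.3 and drew the figures with matplotlib 3.10.9 and numpy 2.4.6.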

Additional observations from a re-analysis of the deposited data

How the results depend on the processing

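The count of 1 member with ASP + TFA over TFA became 0 with the brighter rows only, in which Hist1h3a was not measured, with shared rows counted for each symbol, with trend and robust variance, with the muscle covariate and with plain analysis of variance, and was 0 to 1 when single arrays were left out. With the muscle covariate 0 genes of the table passed in this comparison. The cause of these losses was not tested, except that the brighter rows leave Hist1h3a out and the shared rows average it with 4 others. Array weights gave 2 members in the F test and 2 with ASP + TFA over TFA. They gave 1 in ASP + MSG + TFA over ASP + TFA and 1 in the interaction. Among all 20422 genes, array weights gave 295, 670, 235 and 142 in that order, against 23, 58, 5 and 14 without them. Hist1h4f was among the members in ASP + TFA over TFA, at an adjusted p of 0.0132. Plain analysis of variance without adjustment gave 8 of 69 rows for diet. Other counts stayed at 0 in the alternatives run. The log2 fold change of Hist1h2ad with ASP + MSG + TFA over TFA, -0.24, was 0.06 with the median of its rows and 0.09 with the muscle covariate. No pairing of arrays by replicate number was seen, which does not exclude a shared batch. The 18 same-numbered pairs had correlations of deviations from -0.34 to 0.35 (median 0.03), and other pairs from -0.30 to 0.28 (median 0.00). Of 12 arrays, 5 correlated best with their own number. With the replicate block 1 member passed with ASP + TFA over TFA, Hist1h3a (adjusted p = 0.0210), and 0 in each other comparison. Precision is limited by 3 arrays per diet and by members read by 1 row.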

Other observations

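The 47 rows that name a histone cluster gene together with other symbols had mean log2 intensities of 4.94 to 11.70. Of these, 11 named H2A genes alone, 3 H2B, 11 H3 and 5 H4 genes alone, while 11 named H2A and H3 genes, 1 an H1 and an H2B gene, and 5 Hist3h2a together with Trim17, which is no histone gene. In a fit over all 216810 rows with at least 1 symbol, 0 of the 47 passed in the F test or against TFA (smallest adjusted p 0.338), and 1 had an unadjusted p under 0.05 in the F test. Their median log2 fold change over TFA was 0.01 with ASP + MSG + TFA, 0.02 with ASP + TFA and -0.01 with MSG + TFA. Several of the 47 rows had the same rounded values as another on all 12 arrays, so they are not 47 separate measurements. Among the 69 rows of members, this also held for rows of Hist2h3c1 and of Hist3h2a. The 11 rows shared among H3 genes alone ranged from -0.02 to 0.06, from 0.02 to 0.12 and from -0.03 to 0.11 in that order, and the 5 rows shared among H4 genes from 0.04 to 0.07, from -0.08 to -0.01 and from 0.01 to 0.02. Among the 11 rows shared by H2A genes alone the lowest value with ASP + TFA over TFA was -0.84.

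Markers of blood cells and macrophages were compared between pools. The mean log2 intensity of lymphocyte markers was 5.98 to 6.05 in ASP + MSG + TFA, 5.84 to 5.96 in ASP + TFA, 5.90 to 5.92 in MSG + TFA and 5.93 to 5.94 in TFA pools. For neutrophil markers it was 6.04 to 6.07, 5.90 to 6.10, 5.89 to 5.97 and 5.89 to 5.96 in the same order, so that for both lists the ASP + MSG + TFA pools were above the TFA pools. For erythroid markers it was 7.37 in all ASP + MSG + TFA pools, 7.20 to 7.30 in ASP + TFA, 7.28 to 7.38 in MSG + TFA and 7.32 to 7.37 in TFA pools, with ASP + TFA below TFA. For Kupffer cell and macrophage markers it was 8.25 to 8.46, 8.30 to 8.54, 8.38 to 8.51 and 8.51 to 8.59 in the same order, with ASP + MSG + TFA below TFA. The part of these cells in the values of the histone cluster genes was not tested. With ASP + TFA over TFA 9 of 14 skeletal muscle markers fell and passed, against a background of 0.284% of all genes. Among them was Ttn (titin, -1.23, adjusted p = 0.0123).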
